A study of Mus musculus with 12 samples.

Results

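Described here are 40 genes of the G2 phase and of mitosis in macrophages and monocytes of mouse bone marrow. The set was defined by name, and the genes were found by mouse symbol among the 56953 Ensembl genes of the deposited tables. All 40 were matched, and all 40 passed the filter on low counts in each of the 6 pairwise comparisons made below. RNA had been sequenced from 12 libraries of sorted cells from female C57BL/6J mice aged 8 weeks, with 3 libraries in each of 4 groups. In the tracer mice of the study (Rank cre/+;R26.eYFP fl/+), Cre recombinase made from the Rank locus permanently switches on the yellow fluorescent protein eYFP. Per the study this marks macrophages of embryonic origin and leaves the progeny of adult hematopoietic stem cells unmarked. The macrophages form an eYFP+ group (embryonic) and an eYFP- group (adult-derived). The monocytes form a Ly6Chi and a Ly6Clo group, separated by the amount of the surface protein Ly6C. Macrophages were gated as F4/80hi cells positive for CD206 and VCAM1, so both macrophage groups share this gate and were separated by the reporter. The labels give the strain but no genotype, and neither they nor the study's methods say whether a library came from 1 animal or several. The p-values below therefore measure the spread between these libraries, which may be technical.

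A cell enters mitosis when the kinase Cdk1, bound to cyclins of the A and B types, becomes active. Aurora and Polo kinases, kinetochores, motor proteins and the spindle checkpoint then distribute the chromosomes, and an E3 ubiquitin ligase, the anaphase-promoting complex, ends the process by marking cyclins for destruction. Most of these genes are transcribed in G2 and M and are low in resting cells, so their transcripts are widely used as a sign of cycling. In the bone marrow, monocytes arise from dividing progenitors, and erythroid precursors divide on the surface of the macrophages that form erythroblastic islands. In a bulk sample, fewer cells with a transcript and less of the transcript per cell cannot be told apart.

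Library totals ran from 26390927 to 48618187 counts. Sorting markers matched the labels. Vcam1 stood at 8965 to 14369 TPM in macrophages and at 14.4 to 90.2 TPM in monocytes, and Ly6c2 stood at 5809 to 6963 TPM in Ly6Chi and at 32.4 to 77.5 TPM in Ly6Clo monocytes. TPM values correct the counts for the length of each gene and sum to the same total in each library. The first eYFP+ library stood apart for these genes. It was higher than both other eYFP+ libraries in 34 of the 40, and its median log2 ratio to them over the 40 was 0.997. The second Ly6Clo library, the shallowest of the 12, was higher than both others of its group in 17 and lower than both in 18, with log2 ratios from -6.90 to 2.78. It had 16434 genes detected, against 24769 and 22254 in its group. Both libraries were low in transcripts rich in G and C. At a transcript GC content of 60%, the smoothed log2 ratio to the mean of all libraries was -1.23 in the second Ly6Clo library, against 0.16 and 0.17 in its group, and -0.46 in the first eYFP+ library, against 0.32 and 0.37. Foxm1 and Ttk were at 0 counts in the second Ly6Clo library, and Cdc25c was at 0 in the third Ly6Clo library. Counts of calls that moved by over 1.5 times without either library, and the ratios of summed levels, are given with and without it. Lists of library values below follow the replicate numbers 1, 2 and 3.

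Levels differed widely between genes. Mean TPM over the 12 libraries ran from 1.18 for Cenpf, a large kinetochore protein, to 57.2 for Ube2c, the ubiquitin-conjugating enzyme of the anaphase-promoting complex. Summed over the 40 genes, eYFP- macrophages stood highest, at 1170, 847 and 1091 TPM. Ly6Chi monocytes followed at 605, 590.4 and 487 TPM, then Ly6Clo monocytes at 437, 428 and 435 TPM. Lowest were eYFP+ macrophages, at 429, 296 and 272 TPM. The libraries of eYFP- macrophages did not overlap those of any other group, and neither did those of Ly6Chi monocytes, whereas the first eYFP+ library lay between 2 Ly6Clo libraries. As a ratio of mean sums, eYFP- macrophages were 3.12 times as high as eYFP+ macrophages, 1.85 times as high as Ly6Chi monocytes and 2.39 times as high as Ly6Clo monocytes. Without the first eYFP+ library the first of these ratios was 3.65, and without the second Ly6Clo library the last was 2.38.

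Gene by gene, mean TPM was highest in eYFP- macrophages for 35 of the 40. In 21 of these the 3 eYFP- libraries lay above all 9 others. By normalized counts that held for 15 of the 40, beside 3.11% of the genes tested between the macrophages. Of the remaining 5 genes, 3 were highest in Ly6Chi monocytes (Foxm1, Aurkb and Anln) and 2 in Ly6Clo monocytes (Cks2 and Ndc80). The lowest group was eYFP+ macrophages for 20 genes and Ly6Clo monocytes for 19. Spread within a group was unequal. The median SD was 40.8% of the mean in eYFP+ macrophages and 41.3% in Ly6Clo monocytes, the groups that hold the libraries named above, and 23.2% in eYFP- macrophages and 19% in Ly6Chi monocytes.

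**Figure D1:**
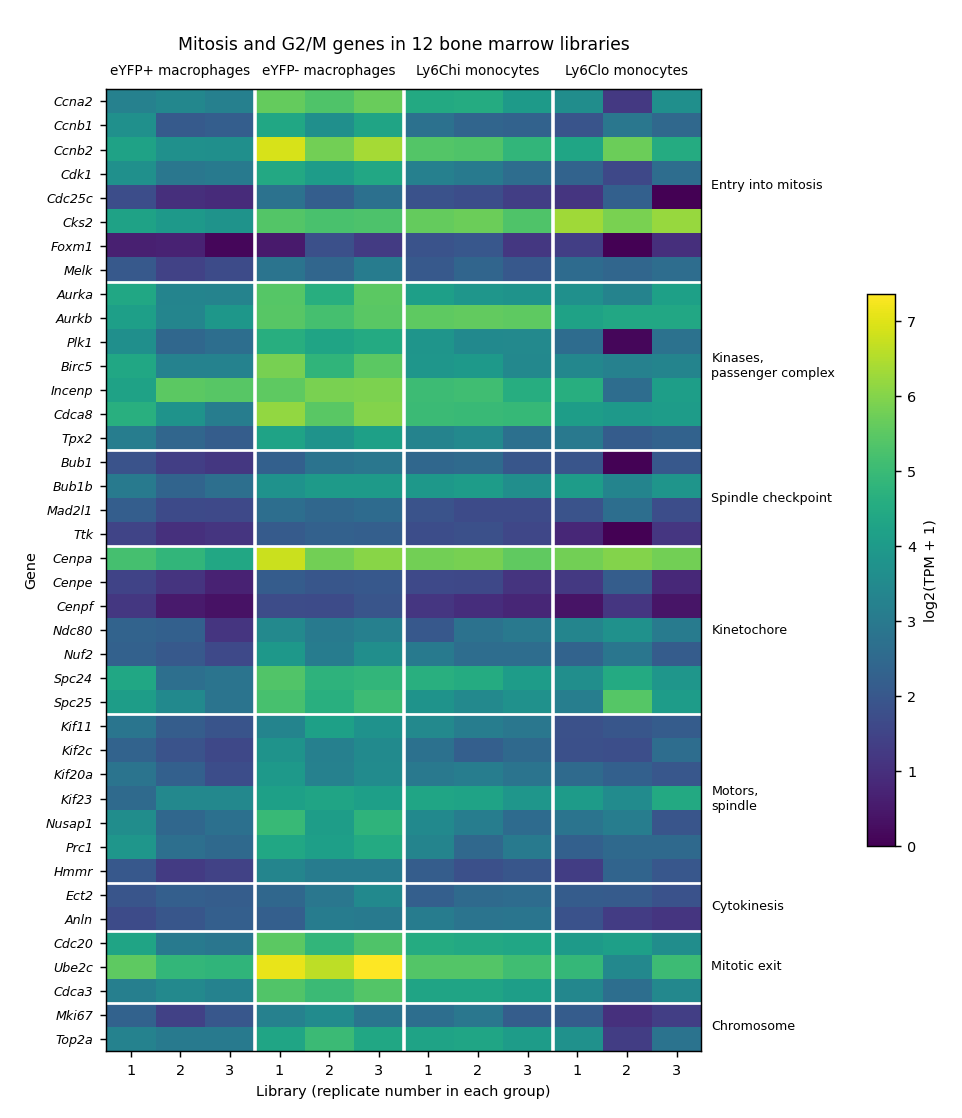
Level of each of the 40 genes (rows, ordered by role) in each of the 12 libraries (columns, by group and replicate number), coloured by log2(TPM + 1). The 3 eYFP- columns are the brightest for 35 genes by group mean, and the second Ly6Clo column departs from its neighbours in both directions.

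Many genes of this kind are held off in resting cells through a short promoter element, the cell cycle genes homology region (CHR, TTTGAA), often next to CCAAT boxes bound by the factor NF-Y. Promoters of 32 of the 40 genes were in the RefSeq table used (build GRCm38.p6, from 250 bases before to 50 after the start of the gene). On either strand, TTTGAA was found in 23 of them (71.9%) and in 20.2% of the promoters of 27025 genes. CCAAT was found in 24 (75.0%) and in 41.1%, and both in 20 (62.5%) and in 7.97%. A CCAAT and a TTTGAA can share at most 1 letter. Of 69 other genes of G2/M and mitosis, 56 had a promoter in the table, and 58.9% of those held TTTGAA. Of 23 genes of DNA replication and S phase, 3 did. In 21 of the 23 promoters with TTTGAA, a copy began within 50 bases of the start. Such a match is a description of the sequence and says nothing about binding in these cells.

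To show how these elements sit, stretches just before the start are printed for 4 genes, 5′ to 3′ along the gene, with TTTGAA and CCAAT in capitals (TTCAAA and ATTGG where they lie on the other strand). Cdk1 and Ccnb2 were chosen from the genes of mitotic entry by rule, and Cdc20 and Ube2c were added after their values were seen, as genes of mitotic exit with large differences between the macrophages. The stretches are Cdk1 chr10:69352913-69353032 (minus strand), Ccnb2 chr9:70421555-70421724 (minus strand), Cdc20 chr4:118437344-118437463 (minus strand) and Ube2c chr2:164769809-164769928 (plus strand), all in GRCm38.p6.
Cdk1: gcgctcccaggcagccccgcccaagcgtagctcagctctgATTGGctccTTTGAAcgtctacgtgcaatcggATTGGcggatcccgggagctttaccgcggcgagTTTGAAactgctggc
Ccnb2: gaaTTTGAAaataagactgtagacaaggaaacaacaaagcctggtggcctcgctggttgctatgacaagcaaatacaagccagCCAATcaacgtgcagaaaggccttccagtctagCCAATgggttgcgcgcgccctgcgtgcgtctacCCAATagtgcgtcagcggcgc
Cdc20: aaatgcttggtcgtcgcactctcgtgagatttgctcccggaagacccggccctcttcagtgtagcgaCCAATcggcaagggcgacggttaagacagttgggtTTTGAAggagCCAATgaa
Ube2c: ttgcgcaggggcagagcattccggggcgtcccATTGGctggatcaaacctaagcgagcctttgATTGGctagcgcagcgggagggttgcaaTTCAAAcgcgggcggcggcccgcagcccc
Counted from the start of the gene, TTTGAA began at -71 and -15 in Cdk1, at -18 in Cdc20 and, on the other strand, at -29 in Ube2c, each with a CCAAT box further upstream. In Ccnb2 the copy shown began at -167, upstream of CCAAT boxes at -87, -54 and -21, and a second copy on the same strand began 5 bases after the start, downstream of all 3 boxes and outside the stretch printed.

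The comparison of eYFP+ with eYFP- macrophages asks how macrophages of the same gate but different origin differ. Of the 40 mitotic genes, 17 were lower in eYFP+ macrophages and none was higher (DESeq2 adjusted p under 0.05), where 1.88% of the 21567 genes tested were lower and 0.153% higher. All 40 log2 fold changes were below 0, as were 46.0% of those of all genes tested, and the median was -1.49 beside 0.05 for all genes. For 36 of the 40 the normalized counts of the groups did not overlap, all lower in eYFP+, beside 8.5% of all genes tested (6.74% not overlapping and higher). The 4 that overlapped were Aurka, Prc1, Ccnb1 and Foxm1. Called genes came from all roles except cytokinesis and the 2 chromosome proteins, whose fold changes were also below 0 without passing. The summed levels of erythroid, progenitor and granulocyte precursor markers also lay below those of eYFP- macrophages in all 3 eYFP+ libraries, with the values given after the cell cycle lists, and their part in the result was not tested.

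The number of calls depended on the test and on single libraries. On simulated counts with the dispersions of these libraries, DESeq2 made false calls well above the rate set by its threshold and edgeR did not, so counts of DESeq2 calls, here and in the other comparisons and lists, are to be read beside those of edgeR and beside the share of all genes called. With edgeR's quasi-likelihood test 3 passed (Ccnb2, Aurkb and Cdca3), where 0.328% of genes were lower and 0.00521% higher. At this test 34 were lower at an unadjusted p under 0.05, and none was higher at either level. Without the first eYFP+ library DESeq2 called 26 genes. It called 8 and 6 without the second and the third eYFP+ library, and 9, 19 and 5 without the first, the second and the third eYFP- library. Cdca3, Ccnb2, Aurkb and Cks2 were called in all 6 of these fits, whereas Melk, Birc5, Tpx2, Cenpa, Kif11, Kif2c, Hmmr and Cdc20 were called in 2.

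**Figure D2:**
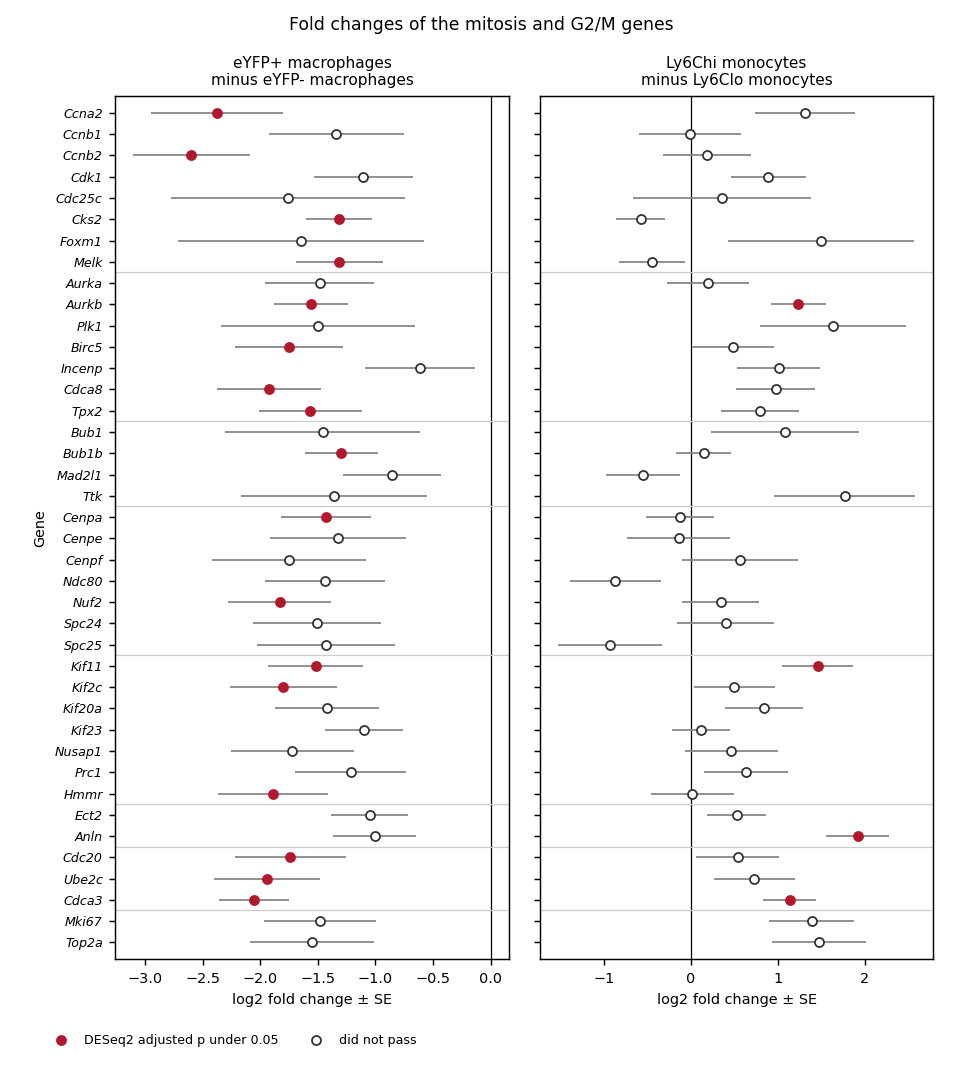
Log2 fold change ± SE of each of the 40 genes for eYFP+ minus eYFP- macrophages (left) and Ly6Chi minus Ly6Clo monocytes (right), n = 3 libraries a group, with filled points for a DESeq2 adjusted p under 0.05. All 40 points lie left of 0 on the left side, where 17 are filled, and 4 are filled on the right side, where 32 lie right of 0.

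Between the monocytes, which differ in maturity, 4 genes were higher in Ly6Chi than in Ly6Clo cells and none was lower, where 3.66% of the 21567 genes tested were higher and 4.96% lower. These 4 were Anln, Aurkb, Cdca3 and Kif11, and edgeR called the same 4 and none lower, where 1.81% of genes were higher and 2.51% lower by edgeR (none of the 40 was lower at an unadjusted p under 0.05). The median log2 fold change of the 40 was 0.53, beside 0.02 for all genes, with 32 above 0. Not overlapping and higher in Ly6Chi cells were 17 genes, beside 16.2% of all genes tested, and not overlapping and lower were 3 (Cks2, Ndc80 and Melk), beside 11.9%. Without the first or the second Ly6Clo library, 7 genes were called.

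Each macrophage group was also set against each monocyte group. These comparisons share libraries with each other and with those above. Markers of other cells, described below, also differed in them. All 16 erythroid markers were higher in eYFP- macrophages than in either monocyte group with DESeq2 and edgeR. Of 10 granulocyte precursor markers, DESeq2 called 5 lower than in Ly6Chi monocytes, and 5 higher and 3 lower than in Ly6Clo monocytes. The part of these lists was not tested. Compared with Ly6Clo monocytes, 27 genes were higher in eYFP- macrophages and 1 was lower (Cks2), where 15.4% of the 21567 genes tested were higher and 10.8% lower. The median log2 fold change was 1.46, beside 0.05 for all genes, and edgeR called 23 (22 higher and the same gene lower), where it called 21.9% of genes in either direction. The count was 31 without the second Ly6Clo library, 16 without the first and 17 without the third eYFP- library.

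Compared with Ly6Chi monocytes, 9 genes were higher in eYFP- macrophages and none was lower, where 16.3% of the 20749 genes tested were higher and 11.1% lower. The share of the 40 lay above that of all genes, which was not tested, and the median log2 fold change was 0.78, beside 0.08 for all genes. The 9 were Ube2c, Birc5, Cdk1, Cdca3, Ccnb1, Nusap1, Prc1, Hmmr and Aurka. edgeR called 7 of them and none lower (13 higher and none lower at an unadjusted p under 0.05), where 13.5% of genes were higher and 9.76% lower by edgeR. Only 2 genes, Ube2c and Birc5, were called in all fits that left out 1 library. The count was 2 without the first or the third eYFP- or the third Ly6Chi library, and 3 without the second Ly6Chi library.

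In eYFP+ macrophages 7 genes were lower than in Ly6Chi monocytes and none was higher, where 10.6% of the 23203 genes tested were lower and 13.9% higher. The lower genes were Cks2, Aurkb, Bub1b, Cdca3, Anln, Kif23 and Ccnb2, and edgeR called 8 lower and none higher (none higher at an unadjusted p under 0.05), where 11.4% of genes were lower and 13.2% higher by edgeR. The median log2 fold change of the 40 was -0.79, beside 0.09 for all genes, and 35 were below 0. Without the first eYFP+ library the count was 16. Compared with Ly6Clo monocytes, 7 were lower (Cks2, Bub1b, Ndc80, Kif23, Melk, Cenpa and Ccnb2) and 1, Cdk1, was higher, where 12.2% of the 20749 genes tested were lower and 15.7% higher. The median log2 fold change there was -0.07, beside 0.08 for all genes, with 19 above and 21 below 0. edgeR called 6 lower and none higher (2 higher at an unadjusted p under 0.05), where 10.5% of genes were lower and 12.8% higher by edgeR. The count was 5 without the second or the third eYFP+ or the third Ly6Clo library. Without the second Ly6Clo library 6 were lower and none was higher. In both comparisons the share of the 40 called lower lay above that of all genes, and that difference was not tested.

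Among the 8 genes of mitotic entry, Ccnb2, which encodes cyclin B2, showed the largest fold change of the 40 between the macrophages. It stood at 17.8, 11.9 and 11.8 TPM in eYFP+ and at 119, 54.2 and 81.8 TPM in eYFP- macrophages. Ly6Chi monocytes had 41.0, 39.1 and 27.5 TPM and Ly6Clo monocytes 19.0, 51.8 and 22.3 TPM. The macrophage groups were far apart, and the 3 Ly6Clo libraries spanned the Ly6Chi range. The log2 fold change of eYFP+ against eYFP- macrophages was -2.60 ± 0.50 (SE), or 6.05-fold lower (DESeq2 adjusted p = 7.07e-05, edgeR adjusted p = 0.0488). Reads of Ccnb2 and Ccnb1 may be shared with the annotated copies Ccnb2-ps and Ccnb1-ps, so both values are uncertain to that extent.

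Ccna2, cyclin A2, which acts from S phase into early mitosis, stood at 8.33, 9.63 and 8.29 TPM in eYFP+ and at 48.0, 39.7 and 50.7 TPM in eYFP- macrophages. It stood at 21.4, 22.1 and 15.1 TPM in Ly6Chi and at 11.2, 1.35 and 11.7 TPM in Ly6Clo monocytes. The eYFP- libraries lay above all others, and the second Ly6Clo library lay far below its group. Ccna2 fell by 2.38 ± 0.58 (SE) on the log2 scale in eYFP+ against eYFP- macrophages (DESeq2 adjusted p = 0.00381, edgeR adjusted p = 0.141). Against Ly6Clo monocytes it was 5.43-fold higher in eYFP- macrophages (DESeq2 adjusted p = 0.000215).

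Cks2, the small subunit that binds cyclin-dependent kinases, had another order of groups. It was highest in Ly6Clo monocytes, at 78.2, 57.5 and 73.2 TPM, followed by Ly6Chi monocytes at 48.6, 51.0 and 39.6 TPM. In eYFP- macrophages it stood at 41.3, 37.3 and 38.2 TPM and in eYFP+ macrophages at 17.9, 14.9 and 12.7 TPM. Ly6Clo and eYFP+ libraries overlapped with no other group, while Ly6Chi and eYFP- libraries overlapped. Cks2 took 13.4% to 17.9% of the summed TPM of the 40 genes in Ly6Clo libraries, 8.04% to 8.64% in Ly6Chi libraries, and at most 5.03% in a macrophage library. It fell by 1.32 ± 0.28 (SE) on the log2 scale in eYFP+ against eYFP- macrophages (DESeq2 adjusted p = 0.000635, edgeR adjusted p = 0.0677). Against Ly6Clo monocytes Cks2 was lower in both, 4.78-fold in eYFP+ (DESeq2 adjusted p = 6.49e-14) and 1.92-fold in eYFP- macrophages (DESeq2 adjusted p = 0.00498). Between the monocytes its log2 fold change was -0.58 ± 0.28 (SE), which did not pass (DESeq2 adjusted p = 0.21).

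Cdk1, the kinase that starts mitosis, stood at 11.9, 6.53 and 7.11 TPM in eYFP+ and at 20.7, 15.7 and 20.5 TPM in eYFP- macrophages. Ly6Chi monocytes had 8.14, 7.21 and 5.26 TPM, and Ly6Clo monocytes had 4.05, 2.03 and 5.15 TPM. Here eYFP+ macrophages overlapped with Ly6Chi monocytes and lay above Ly6Clo monocytes. The macrophage groups did not overlap, but the log2 fold change of -1.11 ± 0.43 (SE) did not pass (DESeq2 adjusted p = 0.24). Cdk1 was the 1 gene of the 40 that was higher in eYFP+ macrophages than in Ly6Clo monocytes, 2.22-fold (DESeq2 adjusted p = 0.0306, edgeR adjusted p = 0.0615), and it was called in 3 of the 6 fits that left out 1 library. In eYFP- macrophages it was 2.57-fold higher than in Ly6Chi monocytes (DESeq2 adjusted p = 0.00791) and 4.77-fold higher than in Ly6Clo monocytes (DESeq2 adjusted p = 2.52e-06).

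Foxm1, a transcription factor that activates genes of G2 and M, was low everywhere. It stood at 0.552, 0.626 and 0.0876 TPM in eYFP+ and at 0.459, 2.47 and 1.41 TPM in eYFP- macrophages. Ly6Chi monocytes had 2.69, 2.99 and 1.28 TPM and Ly6Clo monocytes 1.56, 0 and 0.996 TPM. The 2 macrophage groups overlapped, eYFP+ macrophages lay below Ly6Chi monocytes, and the difference between the macrophages was not detectable at these levels (log2 fold change -1.65 ± 1.07 SE, DESeq2 adjusted p = 0.81). Of the other 3 genes of entry, Melk, a kinase, passed between the macrophages (DESeq2 adjusted p = 0.0313, edgeR adjusted p = 0.212). Ccnb1 (cyclin B1) and Cdc25c, the phosphatase that activates Cdk1, did not pass, with log2 fold changes of -1.34 and -1.76. In eYFP- macrophages Ccnb1 was 3.36-fold higher than in Ly6Chi monocytes (DESeq2 adjusted p = 0.0138).

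The mitotic kinases and the chromosomal passenger complex, which corrects faulty attachments of chromosomes to the spindle, comprise 7 genes, of which 4 were lower in eYFP+ than in eYFP- macrophages (Aurkb, Cdca8, Birc5 and Tpx2). Cdca8, which encodes the subunit borealin, stood at 24.2, 12.8 and 7.77 TPM in eYFP+ and at 71.3, 43.3 and 62.2 TPM in eYFP- macrophages. It stood at 31.3, 30.9 and 29.5 TPM in Ly6Chi and at 16.1, 14.8 and 15.8 TPM in Ly6Clo monocytes. No 2 groups overlapped except the eYFP+ macrophages with the Ly6Clo monocytes. Cdca8 fell by 1.92 ± 0.45 (SE) on the log2 scale in eYFP+ against eYFP- macrophages (DESeq2 adjusted p = 0.00247, edgeR adjusted p = 0.097).

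Aurkb, the kinase of the complex, stood at 16.9, 9.14 and 13.9 TPM in eYFP+ and at 42.5, 35.3 and 43.6 TPM in eYFP- macrophages. Its highest level was in Ly6Chi monocytes, at 45.2, 46.8 and 45.4 TPM, against 17.8, 20.3 and 20.2 TPM in Ly6Clo monocytes. The Ly6Chi libraries lay just above the eYFP- libraries and far above the Ly6Clo ones. Aurkb was 2.95-fold lower in eYFP+ than in eYFP- macrophages (DESeq2 adjusted p = 0.000227, edgeR adjusted p = 0.0453). Between the monocytes it was 2.36-fold higher in Ly6Chi cells (DESeq2 adjusted p = 0.00283), in all 6 fits that left out 1 library. It was 3.59-fold lower in eYFP+ macrophages than in Ly6Chi monocytes (DESeq2 adjusted p = 1.26e-07).

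Incenp, the scaffold of the complex, departed from the others. It stood at 17.8, 44.9 and 42.7 TPM in eYFP+ and at 45.7, 57.4 and 58.8 TPM in eYFP- macrophages. Monocytes had 31.95, 33.3 and 23.3 TPM (Ly6Chi) and 23.4, 5.22 and 16.5 TPM (Ly6Clo). In most of the 40 genes the first eYFP+ library was the highest of its group, and here it was the lowest. Incenp had the smallest fold change of the set between the macrophages (log2 fold change -0.61 ± 0.48 SE, DESeq2 adjusted p = 0.91), and in eYFP- macrophages it was 3.37-fold higher than in Ly6Clo monocytes (DESeq2 adjusted p = 0.0019). Birc5, or survivin, another subunit, fell by 1.75 ± 0.47 (SE) on the log2 scale in eYFP+ against eYFP- macrophages (DESeq2 adjusted p = 0.0137, edgeR adjusted p = 0.143). Tpx2, an activator of Aurora A, passed as well, while Aurka (Aurora A) and Plk1 (the Polo kinase) had log2 fold changes of -1.49 and -1.50 and did not pass. All 7 genes were higher in eYFP- macrophages than in Ly6Clo monocytes with DESeq2, where 15.4% of all genes tested were higher. edgeR called 6 of them higher and did not call Plk1, where it called 21.9% of genes in either direction. Plk1 stood at 5.13, 0.0837 and 5.88 TPM in Ly6Clo monocytes.

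The spindle checkpoint, which delays anaphase until all chromosomes are attached, is represented by 4 genes. Bub1b, which encodes the checkpoint protein BubR1, stood at 6.96, 4.17 and 5.43 TPM in eYFP+ macrophages, below all other libraries. It stood at 12.4, 15.0 and 15.0 TPM in eYFP- macrophages, at 14.1, 15.9 and 11.6 TPM in Ly6Chi monocytes and at 15.6, 9.02 and 13.2 TPM in Ly6Clo monocytes, and these 3 groups overlapped. Bub1b was lower in eYFP+ macrophages than in eYFP- macrophages (2.46-fold, DESeq2 adjusted p = 0.00475, edgeR adjusted p = 0.105), Ly6Chi monocytes (2.62-fold, DESeq2 adjusted p = 0.000126) and Ly6Clo monocytes (2.37-fold, DESeq2 adjusted p = 0.000708).

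Bub1, the kinase partner of the checkpoint, had 2.69, 1.56 and 1.30 TPM in eYFP+ and 3.74, 5.96 and 6.49 TPM in eYFP- macrophages. Ly6Chi monocytes had 4.501, 4.79 and 2.94 TPM, and Ly6Clo monocytes 2.81, 0.0359 and 3.08 TPM. Only the second Ly6Clo library stood near 0, and Bub1 passed in none of the 6 comparisons. Mad2l1, which encodes the inhibitor Mad2, had 3.57, 2.14 and 2.11 TPM in eYFP+ and 5.30, 4.496 and 4.91 TPM in eYFP- macrophages, with 2.70, 2.21 and 2.21 TPM in Ly6Chi and 2.70, 5.31 and 2.32 TPM in Ly6Clo monocytes. It did not pass in any comparison either (log2 fold change between the macrophages -0.86 ± 0.43 SE, DESeq2 adjusted p = 0.54). The fourth, the kinase Ttk, was 5.06-fold higher in eYFP- macrophages than in Ly6Clo monocytes (DESeq2 adjusted p = 0.019, edgeR adjusted p = 0.103), where 1 of the 3 libraries was at 0.

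At the kinetochore, the site on a chromosome that the spindle holds, 2 of 7 genes were lower in eYFP+ than in eYFP- macrophages (Cenpa and Nuf2). Cenpa, the histone H3 variant that marks centromeres, stood at 35.7, 27.5 and 20.2 TPM in eYFP+ and at 108, 54.4 and 66.0 TPM in eYFP- macrophages. Ly6Chi monocytes had 54.5, 56.8 and 46.5 TPM and Ly6Clo monocytes 54.95, 62.8 and 54.2 TPM. The eYFP+ libraries lay below all others, and the other groups overlapped. Cenpa fell by 1.43 ± 0.39 (SE) on the log2 scale against eYFP- macrophages (DESeq2 adjusted p = 0.0192, edgeR adjusted p = 0.13) and was 2.15-fold lower than in Ly6Clo monocytes (DESeq2 adjusted p = 0.0222).

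Spc25 and Spc24 encode neighbouring subunits of the Ndc80 complex, which grips microtubules. Spc25 stood at 16.3, 10.4 and 6.14 TPM in eYFP+ and at 36.1, 23.8 and 31.8 TPM in eYFP- macrophages, with 12.9, 10.1 and 12.2 TPM in Ly6Chi and 7.88, 41.8 and 15.7 TPM in Ly6Clo monocytes. Spc24 stood at 19.7, 5.40 and 6.09 TPM in eYFP+ and at 40.1, 25.9 and 27.8 TPM in eYFP- macrophages, with 24.0, 22.2 and 15.9 TPM in Ly6Chi and 11.5, 21.6 and 13.5 TPM in Ly6Clo monocytes. For both, the macrophages did not overlap, yet the first eYFP+ and the second Ly6Clo library stood well above their groups, and neither gene passed in any comparison. Nuf2, of the same complex, was 3.56-fold lower in eYFP+ than in eYFP- macrophages (DESeq2 adjusted p = 0.00426, edgeR adjusted p = 0.105), called in 3 of the 6 fits that left out 1 library. Ndc80 itself did not pass there (log2 fold change -1.44 ± 0.52 SE) and was 3.31-fold lower in eYFP+ macrophages than in Ly6Clo monocytes (DESeq2 adjusted p = 0.0053). Cenpe, a motor at the kinetochore, and Cenpf had log2 fold changes of -1.32 and -1.75 between the macrophages and did not pass.

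Motors and spindle proteins gave 3 calls of 7 between the macrophages (Kif11, Kif2c and Hmmr). Kif23, a motor of the central spindle, had 4.89, 9.91 and 9.82 TPM in eYFP+ and 17.3, 18.8 and 16.9 TPM in eYFP- macrophages. Monocytes had 19.0, 18.3 and 13.7 TPM (Ly6Chi) and 15.6, 10.7 and 21.01 TPM (Ly6Clo), overlapping with eYFP- macrophages. As for Incenp, the first eYFP+ library was the lowest of its group. Kif23 missed the threshold between the macrophages (2.14-fold lower in eYFP+, DESeq2 adjusted p = 0.0555) and was lower in eYFP+ macrophages than in Ly6Chi (2.24-fold, DESeq2 adjusted p = 0.0038) and Ly6Clo monocytes (2.06-fold, DESeq2 adjusted p = 0.01).

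Nusap1, which binds spindle microtubules near chromatin, had 11.1, 4.53 and 5.59 TPM in eYFP+ and 29.99, 16.1 and 26.5 TPM in eYFP- macrophages, with 10.4, 7.63 and 4.93 TPM in Ly6Chi and 6.07, 7.69 and 2.84 TPM in Ly6Clo monocytes. Prc1, which bundles the microtubules of the central spindle, had 13.6, 5.49 and 4.70 TPM in eYFP+ and 19.9, 16.9 and 21.6 TPM in eYFP- macrophages, with 9.003, 4.58 and 7.06 TPM in Ly6Chi and 3.75, 4.77 and 4.77 TPM in Ly6Clo monocytes. In both genes eYFP- macrophages lay above all other libraries in TPM, and the other 3 groups overlapped. In normalized counts the macrophages overlapped for Prc1, with the first eYFP+ library at 890 and the second eYFP- library at 884. Neither passed between the macrophages (DESeq2 adjusted p = 0.0575 for Nusap1 and 0.27 for Prc1). In eYFP- macrophages both were higher than in Ly6Chi monocytes, 2.98-fold for Nusap1 (DESeq2 adjusted p = 0.0149) and 2.62-fold for Prc1 (DESeq2 adjusted p = 0.0181). Kif11, the motor that pushes spindle poles apart, fell by 1.52 ± 0.41 (SE) on the log2 scale in eYFP+ against eYFP- macrophages (DESeq2 adjusted p = 0.0152, edgeR adjusted p = 0.141), called in 2 of the 6 fits that left out 1 library. It was also 2.75-fold higher in Ly6Chi than in Ly6Clo monocytes (DESeq2 adjusted p = 0.0082), called in 5 of the 6 fits that left out 1 library. Kif20a, a motor of late mitosis, did not pass between the macrophages (log2 fold change -1.42 ± 0.45 SE).

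Cytokinesis, the division of the cell body, is represented by 2 genes. Anln, or anillin, the scaffold of the contractile ring, had 2.19, 2.95 and 3.70 TPM in eYFP+ and 3.69, 7.52 and 7.07 TPM in eYFP- macrophages. It was highest in Ly6Chi monocytes, at 7.46, 6.17 and 6.26 TPM, and lowest in Ly6Clo monocytes, at 2.65, 1.47 and 1.21 TPM. The monocyte groups were far apart, and Anln had the largest fold change of the 40 that passed between them (3.78-fold higher in Ly6Chi, DESeq2 adjusted p = 9.28e-06, called in all 6 fits that left out 1 library). Ect2, which activates the ring, had 2.85, 3.70 and 3.47 TPM in eYFP+ and 4.52, 6.60 and 10.2 TPM in eYFP- macrophages, with 3.68, 4.80 and 5.03 TPM in Ly6Chi and 3.44, 3.35 and 2.62 TPM in Ly6Clo monocytes. The macrophage groups did not overlap for Ect2, and its log2 fold change of -1.05 ± 0.34 (SE) did not pass (DESeq2 adjusted p = 0.0719). Both genes were higher in eYFP- macrophages than in Ly6Clo monocytes with DESeq2 and with edgeR.

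The group named mitotic exit here holds Ube2c and Cdc20, of the anaphase-promoting complex, and Cdca3, which acts at mitotic entry. All 3 genes were lower in eYFP+ than in eYFP- macrophages with DESeq2, and 1, Cdca3, with edgeR. Ube2c stood at 45.4, 28.3 and 26.97 TPM in eYFP+ and at 137, 98.1 and 164 TPM in eYFP- macrophages. Ly6Chi monocytes had 41.2, 41.2 and 33.3 TPM and Ly6Clo monocytes 28.7, 9.9 and 32.2 TPM. The eYFP- libraries lay far above every other library. Ube2c was 3.84-fold lower in eYFP+ than in eYFP- macrophages (DESeq2 adjusted p = 0.0027, edgeR adjusted p = 0.106), and in eYFP- macrophages it was 3.21-fold higher than in Ly6Chi (DESeq2 adjusted p = 0.00171) and 5.33-fold higher than in Ly6Clo monocytes (DESeq2 adjusted p = 2.45e-06).

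Cdc20, the activator of the anaphase-promoting complex, had 18.5, 6.97 and 6.37 TPM in eYFP+ and 44.2, 27.9 and 39.4 TPM in eYFP- macrophages, with 21.95, 20.7 and 19.7 TPM in Ly6Chi and 15.0, 16.8 and 11.2 TPM in Ly6Clo monocytes. The first eYFP+ library exceeded all Ly6Clo libraries, and the other 2 lay below them. Cdc20 fell by 1.74 ± 0.48 (SE) on the log2 scale in eYFP+ against eYFP- macrophages (DESeq2 adjusted p = 0.0198, edgeR adjusted p = 0.163), called in 2 of the 6 fits that left out 1 library.

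Cdca3, which helps to remove an inhibitor of mitotic entry, gave the lowest adjusted p of the 40 between the macrophages. It stood at 7.99, 10.1 and 8.56 TPM in eYFP+ and at 40.2, 31.2 and 40.9 TPM in eYFP- macrophages. It stood at 18.9, 18.8 and 16.4 TPM in Ly6Chi and at 9.60, 5.34 and 9.90 TPM in Ly6Clo monocytes. The groups fell on 3 levels, with eYFP+ macrophages and Ly6Clo monocytes sharing the lowest. Cdca3 fell by 2.06 ± 0.30 (SE) on the log2 scale in eYFP+ against eYFP- macrophages (DESeq2 adjusted p = 1.42e-08, edgeR adjusted p = 0.0143). It was 2.198-fold higher in Ly6Chi than in Ly6Clo monocytes (DESeq2 adjusted p = 0.00474) and 1.93-fold higher in eYFP- macrophages than in Ly6Chi monocytes (DESeq2 adjusted p = 0.00909). For eYFP+ macrophages against Ly6Clo monocytes the log2 fold change was 0.03, with a 95% interval from -0.57 to 0.63.

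Mki67 and Top2a are the most used markers of cycling cells. Mki67, which encodes the protein Ki-67 that coats mitotic chromosomes, had 3.99, 1.69 and 3.01 TPM in eYFP+ and 8.43, 10.7 and 6.31 TPM in eYFP- macrophages, with 5.31, 6.56 and 3.495 TPM in Ly6Chi and 3.38, 1.03 and 1.59 TPM in Ly6Clo monocytes. Top2a, the topoisomerase that untangles sister chromosomes, had 8.69, 6.98 and 7.03 TPM in eYFP+ and 18.9, 31.2 and 19.9 TPM in eYFP- macrophages, with 18.2, 19.0 and 15.9 TPM in Ly6Chi and 12.2, 1.54 and 5.94 TPM in Ly6Clo monocytes. In both genes the macrophages did not overlap and neither did the monocytes. Neither gene passed between the macrophages, with log2 fold changes of -1.48 ± 0.49 (SE, DESeq2 adjusted p = 0.091) for Mki67 and -1.55 ± 0.54 (SE, DESeq2 adjusted p = 0.13) for Top2a. Between the monocytes they missed the threshold too, at 1.39 ± 0.49 (SE, DESeq2 adjusted p = 0.0507) and 1.48 ± 0.54 (SE, DESeq2 adjusted p = 0.0647). In eYFP- macrophages both were higher than in Ly6Clo monocytes, 3.98-fold for Mki67 (DESeq2 adjusted p = 0.000399) and 3.33-fold for Top2a (DESeq2 adjusted p = 0.00745).

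**Figure D3:**
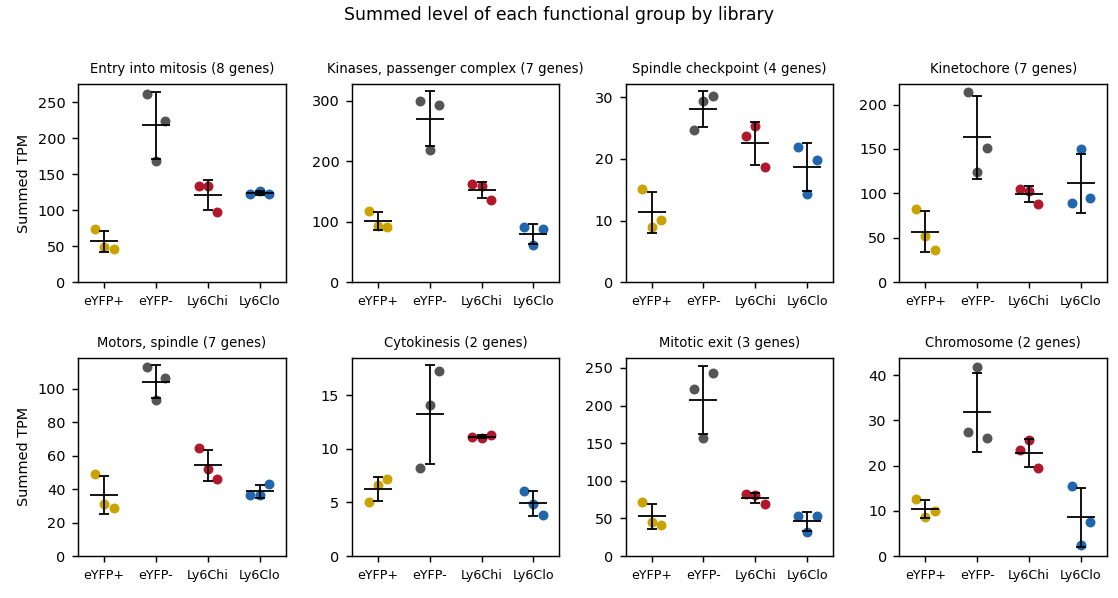
Summed TPM of the genes of each role by library (points), with the group mean (bar) and SD (whiskers), n = 3. In mitotic exit the eYFP- libraries reach 157 to 244 TPM against 32.1 to 82.1 TPM in all others. In the entry and kinetochore groups Ly6Clo monocytes stand no lower than Ly6Chi monocytes by mean. For the kinetochore this rests on the second Ly6Clo library, and for entry on Cks2 (mean 69.6 of 124 TPM in Ly6Clo monocytes).

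Between the monocytes the ratios of the roles were spread. As a ratio of mean summed TPM, Ly6Chi over Ly6Clo, the chromosome genes stood at 2.66, cytokinesis at 2.27, the kinases and passenger complex at 1.90, mitotic exit at 1.68 and the motors at 1.40. The checkpoint stood at 1.20, the entry genes at 0.975 and the kinetochore at 0.888. Within entry, Cks2 alone held a mean of 69.6 of 124 TPM in Ly6Clo and 46.4 of 121 TPM in Ly6Chi monocytes. The entry ratio thus depended on that gene. All 7 log2 fold changes of the kinase group and all 7 of the motors were above 0, against 3 of 7 in the kinetochore and 5 of 8 in entry. These ratios are a description, and their differences were not tested. The second Ly6Clo library held 150 TPM over the kinetochore genes, against 89.2 and 95.3 TPM in its group. Without it the kinetochore ratio was 1.07, on the other side of 1. The chromosome genes then stood at 1.97, below cytokinesis at 2.25, and the kinases at 1.70, exit at 1.45, the motors at 1.36, the checkpoint at 1.08 and entry at 0.987.

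Between the macrophages the ratio of mean sums, eYFP- over eYFP+, ran from 2.098 for cytokinesis to 3.91 for mitotic exit. Entry (3.85) stood next to exit, and the checkpoint (2.48) next to cytokinesis. Without the first eYFP+ library the range was 1.91 for cytokinesis to 4.76 for exit, with entry at 4.54, and the kinases (2.94) in place of the checkpoint (2.97) stood next to cytokinesis. The order was not tested.

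Other lists of the cell cycle, which share no gene with the 40, were counted in the same fits. Their counts between the macrophages stand beside 1.88% of all genes lower and 0.153% higher with DESeq2. With edgeR these shares were 0.328% and 0.00521%. Of 69 further genes of G2/M and mitosis, 13 were lower in eYFP+ than in eYFP- macrophages and none was higher, with a median log2 fold change of -1.28. edgeR called 2 lower and none higher (31 lower and none higher at an unadjusted p under 0.05). The 4 with the lowest adjusted p were the kinase Nek2 (2.23 against 8.97 TPM, DESeq2 adjusted p = 5.27e-05), the condensin subunit Smc4 (10.3 against 24.5 TPM, DESeq2 adjusted p = 0.000255), the spindle protein Ska1 (1.16 against 6.34 TPM, DESeq2 adjusted p = 0.00168, edgeR adjusted p = 0.114) and Racgap1, a partner of Kif23 at the central spindle (6.55 against 23.3 TPM, DESeq2 adjusted p = 0.0032, edgeR adjusted p = 0.105). Between the monocytes 5 of the 69 were higher in Ly6Chi cells and none was lower, where 3.66% of all genes were higher and 4.96% lower. edgeR called 2 higher and none lower (1 lower at an unadjusted p under 0.05), where it called 1.81% of genes higher and 2.51% lower. Whether the list departs from these shares was not tested. The 5 were led by Racgap1 (60.6 against 14.5 TPM, DESeq2 adjusted p = 6.36e-05), the separase Espl1 (DESeq2 adjusted p = 0.00126), Ccnf, an F-box cyclin (DESeq2 adjusted p = 0.00517, edgeR adjusted p = 0.0593), and the condensin subunit Ncapg (DESeq2 adjusted p = 0.0105, edgeR adjusted p = 0.0656).

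Of a list of 26 genes of DNA replication and S phase, 12 were lower in eYFP+ than in eYFP- macrophages and none was higher. Their log2 fold changes had a median of -1.22. edgeR called 2 lower and none higher (20 lower and none higher at an unadjusted p under 0.05). Dut, which clears dUTP from the nucleotide pool, stood at 9.28 against 49.8 TPM (DESeq2 adjusted p = 3.74e-12), and the helicase subunit Mcm5 at 26.8 against 62.8 TPM (DESeq2 adjusted p = 0.000251, edgeR adjusted p = 0.051). Between Ly6Chi and Ly6Clo monocytes 1 of the 26 was called each way, where 3.66% of all genes were higher and 4.96% lower, so nothing about the list is read from these calls. They were Cdc45, of the replicative helicase, higher in Ly6Chi cells (13.7 against 5.25 TPM, DESeq2 adjusted p = 0.0149), and Gins2, of the same helicase, lower (1.73 against 3.99 TPM, DESeq2 adjusted p = 0.0416), neither of which edgeR called. The median was -0.03 there, beside 0.53 for the mitotic genes. The summed TPM of the 40 genes was 0.597 to 0.954 times that of the S phase genes in the 6 macrophage libraries and 1.04 to 1.41 times in the 6 monocyte libraries, with no overlap. That difference was not tested.

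Of 11 cyclins, kinases and E2F factors of G1, 2 were lower in eYFP+ than in eYFP- macrophages and none was higher, E2f2, an E2F factor (3.20 against 14.0 TPM, DESeq2 adjusted p = 0.00152, edgeR adjusted p = 0.0983), and Ccne1, cyclin E1 (8.999 against 39.9 TPM, DESeq2 adjusted p = 0.00197, edgeR adjusted p = 0.0937). edgeR called none in either direction, with 5 lower and none higher at an unadjusted p under 0.05. Between the monocytes E2f2 was higher in Ly6Chi cells, and Ccnd2 and Ccnd1, which encode D cyclins, were lower, Ccnd2 at 0.669 against 8.32 TPM (DESeq2 adjusted p = 4.12e-14). Of 13 inhibitors of the cycle and pocket proteins, 1 was lower in eYFP+ macrophages, the kinase inhibitor Cdkn2d (19.5 against 58.3 TPM, DESeq2 adjusted p = 0.00232, edgeR adjusted p = 0.0626), and 1 was lower in Ly6Chi monocytes, the antiproliferative Btg1 (36.3 against 92.8 TPM, DESeq2 adjusted p = 0.00309). Between the macrophages edgeR called no inhibitor in either direction, and between the monocytes it called Btg1 lower. No inhibitor was higher in either comparison (edgeR called none higher, with none at an unadjusted p under 0.05 between the macrophages and 1 between the monocytes). Their summed level ran from 197 to 364 TPM in macrophages and from 554 to 766 TPM in monocytes, so this list did not follow the order of the mitotic genes.

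Transcripts of other cells moved with the mitotic genes between the macrophages. Erythroid markers (16 genes) summed to 14664, 9072 and 10771 TPM in eYFP+ and to 35765, 22713 and 32125 TPM in eYFP- macrophages, against 369 to 1420 TPM in monocytes. All 16 had a log2 fold change below 0 in eYFP+ against eYFP- macrophages, and 3 passed with DESeq2 (Klf1, Car1 and Slc4a1). edgeR called none of the 16 in either direction, with 12 lower and none higher at an unadjusted p under 0.05. For every 100 TPM of erythroid markers, the libraries held 2.93, 3.26 and 2.52 TPM of the 40 genes in eYFP+ and 3.27, 3.73 and 3.40 TPM in eYFP- macrophages. On that scale the lowest eYFP- library lay just above the highest eYFP+ one. Ly6Chi monocytes held 65.7 to 164 TPM and Ly6Clo monocytes 30.7 to 83.8 TPM on the same scale. The ratio of mean sums, eYFP- over eYFP+, was 2.63 for the erythroid markers and 3.12 for the 40 genes. It was 9.91 for the progenitor and 18.2 for the granulocyte precursor markers described next, so such a scale depends on the list chosen. The part of the erythroid list in the difference was not tested.

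Markers of stem and progenitor cells (10 genes) summed to 6.19 to 17.8 TPM in eYFP+ and to 64.5 to 149 TPM in eYFP- macrophages, and 5 were lower in eYFP+ macrophages with DESeq2 and 1 (Cd34) with edgeR. Those of granulocyte precursors (10 genes) summed to 28.9 to 74.3 and to 228 to 1371 TPM, with 6 lower with DESeq2 and 1 (Prtn3) with edgeR. For eosinophils, basophils and mast cells (7 genes) the sums were 6.45 to 15.8 and 443 to 1805 TPM, and for T and NK cells (11 genes) 11.9 to 27.6 and 68.3 to 140 TPM. Of the former, 1 (Mcpt8) was lower in eYFP+ macrophages with DESeq2 and none with edgeR. Of the latter, 2 (Nkg7 and Lck) were lower with DESeq2 and 1 (Nkg7) with edgeR, and no gene of either list was called higher. The sums of B cells and their precursors (10 genes) overlapped, at 472 to 704 and 476 to 587 TPM, and nearly all of it was Cd79b (470.2 to 701 and 449 to 583 TPM). Each of the other 9 stayed at or below 2.22 TPM in eYFP+ and 6.58 TPM in eYFP- macrophages, the maxima of Dntt, and no gene of this list passed. Of its 8 genes tested, 6 had a log2 fold change below 0, with a median of -1.37. Megakaryocyte markers (7 genes) overlapped in their sum too, at 122.6 to 202 and 141 to 189 TPM, but most of it was Pf4 (118 to 198 and 110.4 to 161 TPM). Itga2b, at 0.457 to 0.961 against 11.2 to 21.1 TPM, was lower in eYFP+ macrophages with DESeq2 and not with edgeR (DESeq2 adjusted p = 0.0018, edgeR adjusted p = 0.17). Gp9 (0 to 2.97 against 6.93 to 12.4 TPM) and Gp5 (0.612 to 1.19 against 3.58 to 4.74 TPM) did not overlap either, and neither passed. These 4 megakaryocyte genes are named after their values were seen. Macrophage markers (8 genes) summed to 30519 to 37377 TPM in eYFP+ and to 24977 to 30948 TPM in eYFP- macrophages, and none passed in either direction (edgeR none, with none at an unadjusted p under 0.05). Markers of monocytes (8 genes) other than Lyz2, Nr4a1 and Cd300e stayed at or below 23.0 TPM in all macrophage libraries. Several of these lists hold dividing cells, and their part in the difference of the mitotic genes was not tested.

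Between the monocytes the summed granulocyte precursor markers did not overlap. They summed to 8349, 5410 and 7324 TPM in Ly6Chi and to 4703, 3267 and 2695 TPM in Ly6Clo cells, and 6 of 10 were higher in Ly6Chi cells with DESeq2 and 4 with edgeR. The monocyte markers (8 genes), among them Ly6c2 of the sorting gate, summed to 76410 to 78167 TPM in Ly6Chi and to 31137 to 36109 TPM in Ly6Clo cells, most of it Lyz2 (67614 to 69860.0 and 29574 to 34586 TPM). Of the 6 that DESeq2 tested, 4 were higher in Ly6Chi cells and 2 lower, and edgeR called 5 higher and the same 2 lower. The lower ones were Cd300e (0.0803 to 1.12 against 431 to 899 TPM) and Nr4a1 (77.96 to 141 against 371 to 744 TPM). The G1 genes summed to 817 to 942 and to 263 to 693 TPM. Macrophage markers (8 genes) went the other way, at 486 to 551 TPM in Ly6Chi and at 689 to 1696 TPM in Ly6Clo cells, and 6 of the 8 were lower in Ly6Chi cells with DESeq2 and 4 with edgeR. Pf4 was lower there as well, at 0.398 to 2.43 against 55.8 to 74.8 TPM (DESeq2 adjusted p = 1.45e-27, edgeR adjusted p = 0.000166). The part of these lists in the difference was not tested.

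**Figure D4:**
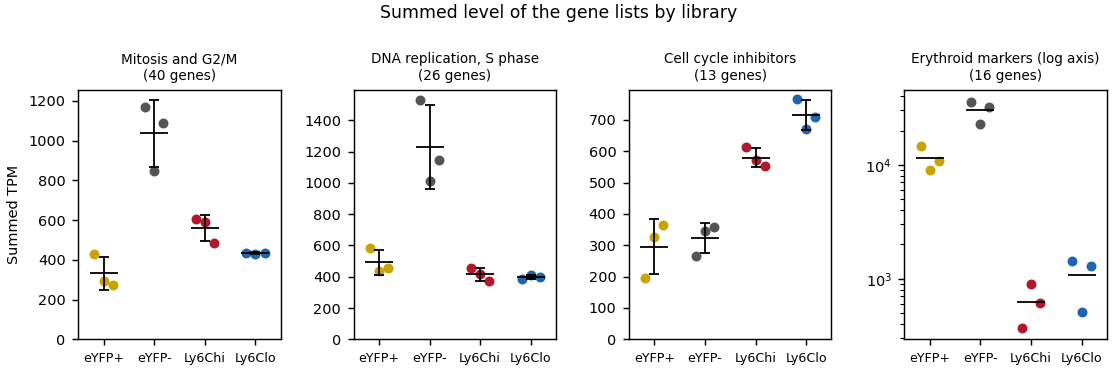
Summed TPM by library (points) of the 40 mitotic genes, the S phase genes, the cell cycle inhibitors and the erythroid markers, with the group mean (bar) and, on the linear axes, the SD (whiskers), n = 3. The mitotic and S phase sums are highest in eYFP- macrophages, the inhibitors are highest in monocytes, and the erythroid sums (log axis) reach at least 9072 TPM in every macrophage library and at most 1420 TPM in every monocyte library.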

How the data were processed

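Sorted bone marrow cells were lysed, polyadenylated RNA was amplified as full-length cDNA and tagmented, and 12 libraries were sequenced. Molecular identifiers are not described. Per the submitters' processing notes and the study's methods, the authors demultiplexed with bcl2fastq 2.20.0.422, trimmed and corrected reads, removed ribosomal RNA, aligned to GRCm39 with segemehl and counted unambiguous read pairs on exons with featureCounts. Use of strand in counting is not given in the sources used here. The deposited count table holds these whole counts, and the deposited TPM table holds counts per gene length scaled to the same sum per library. The authors' variance-stabilised table was not used.

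Symbols were matched through Ensembl identifiers (GENCODE M21), which gave a symbol for 91.4% of 56953 genes. Gene coordinates of GRCm39 were not used here. The tests were run in R 4.3.3 with DESeq2 1.42.0 on the counts, with 1 fit over all 12 libraries, group as the only factor and 6 pairwise contrasts. P-values were two-sided and adjusted by Benjamini-Hochberg over all genes tested, with a threshold of 0.05. Fold changes were not shrunken. edgeR 4.0.16 (quasi-likelihood test) and limma 3.58.1 on log2(TPM + 1) and log2(TPM + 0.1) were alternatives, beside other scalings, filters, a correction for GC content, a replicate block, a fit on 6 libraries and leaving out each library. The scripts were tested on counts simulated from the means and dispersions of these libraries. Fold changes and signs were recovered, but DESeq2 made false calls well above the rate its threshold allows, whereas edgeR stayed close to it and recovered fewer of the changed genes. Levels are TPM and overlaps of groups in the counts of genes are in DESeq2 normalized counts. Promoters came from RefSeq (GRCm38.p6).

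Named by library are the 3 genes of each role with the highest mean TPM (both where a role has 2), Mki67, Top2a, Foxm1 and Cdk1, and any gene called against the majority. Others named in the text were chosen after their values were seen. Of the other lists, the 4 or 2 called genes with the lowest adjusted p are named. The genes and lists were chosen with earlier results of these data known.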

Additional observations from a re-analysis of the deposited data

How the results depend on the processing

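These results rest on 3 libraries a group. Between the macrophages the SE of the log2 fold change was widest for Foxm1 (1.07), Cdc25c (1.02), Bub1 (0.85), Plk1 (0.84) and Ttk (0.80). No fold change that was called reversed its sign under any alternative run. Between eYFP+ and eYFP- macrophages, 17 genes were called, 3 with edgeR and 26 in a fit on the 6 libraries of the contrast. Leaving out 1 library gave 5 to 26. Between Ly6Chi and Ly6Clo monocytes, 4 were called, and 3 to 7 without 1 library. For eYFP- macrophages against Ly6Chi monocytes, 9 were called, 21 in the fit on 6 libraries and 2 to 10 without 1 library. For eYFP- macrophages against Ly6Clo monocytes, 28 were called and 16 to 31 without 1 library, and the other alternatives stayed within 1.5 times. For eYFP+ macrophages against Ly6Chi monocytes, 7 were called, 12 with total-count scaling or the GC correction, 11 with a minimum of 10 counts in 3 libraries or with limma on log2(TPM + 1), 15 in the fit on 6 libraries and 6 to 16 without 1 library. For eYFP+ macrophages against Ly6Clo monocytes, 8 were called, 2 in the fit on 6 libraries and 5 to 10 without 1 library. The causes were not tested. Leaving out the first eYFP+ or the second Ly6Clo library from the ratios of summed levels was chosen after seeing the data and moved the kinetochore ratio between the monocytes from 0.888 to 1.07. Total-count scaling moved the median log2 fold change of all genes between the macrophages from 0.05 to -0.05.

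The labels tie no replicate number to a shared animal, batch or day. Deviations of same-numbered eYFP+ and eYFP- libraries correlated at 0.392, 0.212 and 0.071, all above 0 but the third under the 0.1 required for pairing, so the numbers were not treated as pairs, and whether they pair the macrophage samples was not settled. With the replicate block edgeR called 0 of the 40 between the macrophages (DESeq2 with the block called 21), 2 between the monocytes, 5 for eYFP- macrophages against Ly6Chi monocytes and 4 for eYFP+ macrophages against Ly6Clo monocytes. DESeq2 with the block and a minimum of 10 counts called 12 for eYFP+ macrophages against Ly6Chi monocytes.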
